A study of Mus musculus with 4 samples.

Results

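General capillary endothelial nuclei were examined in the lungs of 2 WT and 2 VEcad-TRF2DN-Tg (Tg) mice by single-nucleus RNA sequencing. They were chosen by their own counts, as barcodes with 1500 or more unique molecular identifiers (UMIs, each standing for 1 captured transcript), at most 1 UMI of the leukocyte gene Ptprc, and 5 or more UMIs from at least 3 of 8 pan-endothelial genes (Pecam1, Cdh5, Tek, Ptprb, Shank3, Calcrl, Flt1 and Egfl7). In addition, 3 or more UMIs were required from at least 2 of 6 capillary genes (Kit, Npr3, Glp1r, Slc24a3, Chrm2 and Adgrl3), with fewer UMIs from 6 genes of the other alveolar capillary cell, the aerocyte (Ednrb, Tbx2, Rgs6, Tmeff2, Egflam and Shisa9). This gave 2473 nuclei of 7491 that passed the endothelial criteria and of 134745 barcodes with 1500 or more UMIs. Of the members, 514 and 305 came from the WT mice, whose strain label is C57/BL6J, and 828 and 826 from the Tg mice, whose strain label is VEcad-TRF2DN-Tg. The mice were 8 to 9 weeks old. According to the study they were males and all had been kept in chronic hypoxia. Whether the age of 8 to 9 weeks is that before or after the hypoxia is not given for these mice. The Tg mice carry a dominant-negative form of the telomere-binding protein TRF2 driven by the vascular endothelial cadherin promoter, which is active in the endothelium of every vessel type and not in capillaries alone. The transgene was not among the genes counted, so that its expression was not measured, and the labels do not say whether the WT mice were littermates.

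The alveolar wall holds general capillary cells and aerocytes. General capillary cells regulate vascular tone, act as progenitors in capillary repair and carry Kit, the receptor for stem cell factor. Aerocytes are large, thin cells specialised for gas exchange, and they carry the endothelin receptor Ednrb. Loss of TRF2 function uncaps telomeres and triggers a DNA damage response, which can lead through p53 and the kinase inhibitor Cdkn1a to senescence.

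The 4 libraries had 125261739 to 182014706 UMIs. The general capillary nuclei had a median of 3049.5 to 3748 UMIs, and their UMIs were summed per mouse to 2084371, 1541387, 3285723 and 3630683 in WT 1, WT 2, Tg 1 and Tg 2, an order kept throughout. A gene's level is given as CPM, its UMIs scaled to an equal total in every mouse, and is not corrected for gene length. No pair of libraries shared a barcode among the members. Free RNA was abundant. Barcodes further down the order of total UMIs, down to rank 90000, were taken as droplets without a nucleus. They held at most 1178, 1296, 988 and 1474 UMIs and at least 7, 10, 8 and 11, with medians of 672 to 949. In Tg 2, where 44000 barcodes had 1500 or more UMIs, the droplets began close below that cutoff. Whether the droplets of any mouse included nuclei with few UMIs was not tested. A set of 8 airway secretory and surfactant genes, made by epithelial cells, took 0.87, 0.861, 4.62 and 2.1% of the UMIs of the general capillary nuclei and 1.99, 1.98, 14.8 and 5.52% of those of the droplets. If all of it was free RNA, then 43.6, 43.6, 31.2 and 38% of the UMIs of the nuclei came from outside. Levels in the droplets of the same mice are therefore given for many of the genes called between genotypes.

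The chosen nuclei carried a median of 5 or 6 capillary UMIs from 3 of the 6 genes. At the estimated rate of free RNA, any barcode of the members' median depth would get 0.934, 0.922, 0.206 and 0.433 capillary UMIs from outside. The members were chosen for their capillary UMIs, so this does not measure the outside part of theirs. Near the threshold, 118, 47, 172 and 144 members had exactly 3 capillary UMIs, and 123, 62, 182 and 142 nuclei with 2 capillary UMIs from 2 genes lay just outside. Exactly 5 pan-endothelial UMIs were found in 65, 44, 56 and 60 members, and 133, 86, 51 and 68 barcodes that met the other conditions had 4. A single UMI of Ptprc was present in 222, 161, 277 and 399 members, and 99, 141, 105 and 252 barcodes were outside with 2.

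Among the capillary genes of the rule, Adgrl3, an adhesion receptor, carried much of the choice. Without it, only 214, 143, 341 and 382 members still had 3 or more UMIs from at least 2 capillary genes. Adgrl3 was at 1033, 1565, 913 and 1041 CPM in the members and at 428, 402, 124 and 215 CPM in the droplets. Kit was more restricted, at 203, 173, 169 and 189 CPM in the members, 26.4, 22.1, 23.4 and 21.7 CPM in aerocytes and 28.5, 21.9, 13.5 and 19.9 CPM in the droplets. Kit UMIs were found in 46.9%, 49.2%, 45.5% and 51.7% of the members, against 4.52%, 3.84%, 1.65% and 3.18% of barcodes with at most 1 pan-endothelial UMI, which had lower median UMIs (1810 to 2374). These values follow from the choice and are a description.

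Genes that the choice did not name also set these nuclei apart, which is again a description because the members were selected on counts of the same nuclei. Against the 69789 barcodes with at most 1 pan-endothelial UMI, Tspan18, a tetraspanin, had the highest fold in the mouse where that fold was lowest, at 203, 209.6, 154 and 173 CPM against 16.6, 15.4, 9.87 and 9.53 CPM. Eng, the endothelial co-receptor for BMP9, was 10.1 to 13.1 times as high, and the transcriptional cofactor Ldb2 9.99 to 33.8 times. The other genes among the first 12 were Dipk2b, Myrip, Nova2, Hspa12b, Fgd5, Gm30382, Bmp6, Ccdc85a and 4930554G24Rik. Of these 12, Tspan18, Hspa12b, Fgd5, Gm30382, Ccdc85a and 4930554G24Rik were higher in aerocytes than in general capillary nuclei of every mouse, and Myrip, Ldb2 and Bmp6 were lower there.

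Against the 556 aerocyte nuclei, which passed the same endothelial criteria, Bmp6 led. Bmp6 encodes a bone morphogenetic protein and stood at 300.3, 354, 305 and 363 CPM in general capillary nuclei, 84.4, 55.3, 61.4 and 58.6 CPM in aerocytes and 39, 33.2, 22.4 and 26.4 CPM in the droplets. The hyaluronan-degrading enzyme gene Cemip2 was 3.18 to 10.1 times as high as in aerocytes, and the laminin receptor subunit Itga6 was 3.01 to 5.16 times as high. Plcb1, a phospholipase C, and Abcb1a, a drug efflux pump, followed with folds of 2.84 to 5.72 and 2.73 to 9.23. Tmem44, Mcf2l, Nxpe4, Gask1b, Palmd, Acer2 and Cadm1 completed the first 12.

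Most aerocyte genes outside the rule that are named here had the opposite order. Car4, a membrane carbonic anhydrase, was at 37.9, 77.2, 50.8 and 81.2 CPM in general capillary nuclei and 208, 259.9, 212 and 199.9 CPM in aerocytes, and the droplets, at 55.4, 177, 91.5 and 164 CPM, lay above the general capillary nuclei. Tbx3, a transcription factor, was at 54.2, 66.2, 69.4 and 82.1 CPM against 319, 326, 266 and 263 CPM. Kdr, a VEGF receptor, was at 77.7, 92.1, 92.5 and 102 CPM against 264, 343, 266 and 315 CPM. Apln, Prx, Emp2 and Chst1 were also lower in general capillary nuclei in every mouse. Nckap5 and Pde3a, on the same list, were higher in general capillary nuclei than in aerocytes, so that the summed list did not separate the kinds (4956, 5094, 4094 and 4486 CPM against 4135, 4213, 4024 and 4271 CPM).

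**Figure D1:**
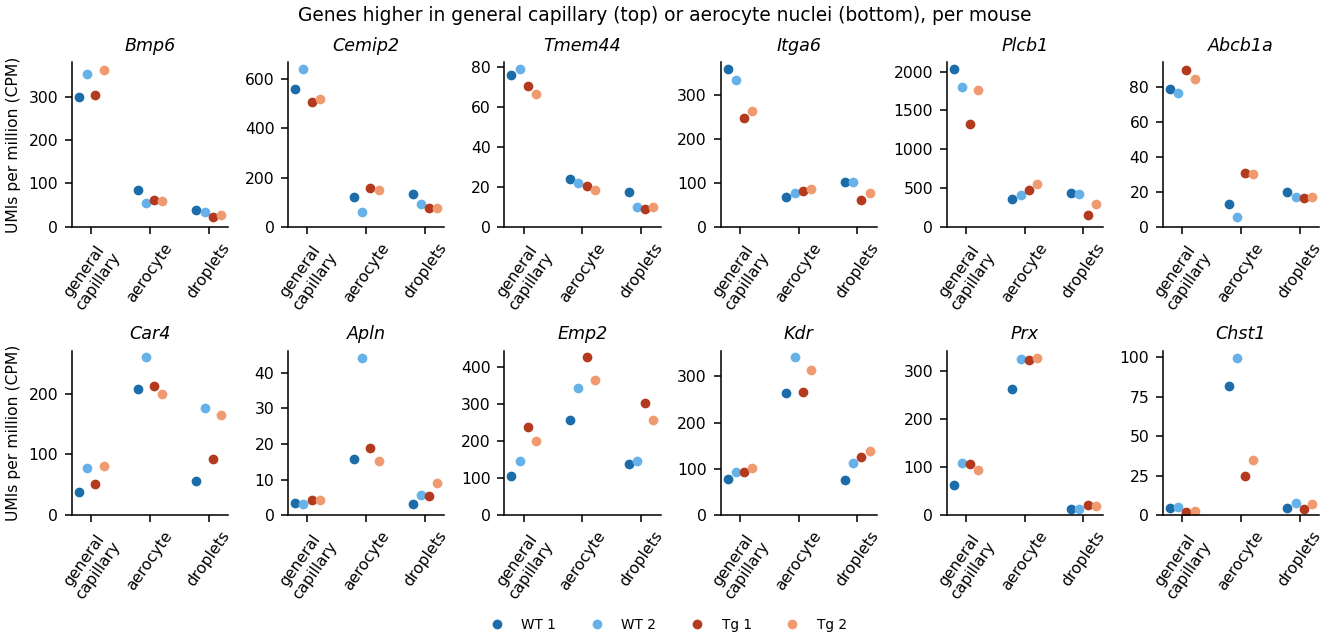
Levels (CPM, linear axes from 0) of 6 genes higher in general capillary nuclei (top row) and 6 aerocyte genes (bottom row), with 1 point per mouse for general capillary nuclei, aerocyte nuclei and droplets without a nucleus. Bmp6 lies between 300.3 and 363 CPM in general capillary nuclei and between 55.3 and 84.4 CPM in aerocytes, and Kdr lies between 77.7 and 102 CPM against 264 to 343 CPM.

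UMIs of other cells were frequent in the members. Nuclei in which a marker list of another lineage had more UMIs than the pan-endothelial genes made up 40.5%, 60.3%, 56.5% and 62.2% and are called mixed nuclei. For these counts the 8 airway secretory and surfactant genes of the free RNA estimate were left out of the lists. Alveolar type 2, airway secretory and macrophage genes exceeded the pan-endothelial genes in the most members of the WT mice and of Tg 2. In Tg 1 they were airway secretory (298 members), alveolar type 2 (255) and erythroid genes (209). Erythroid genes did so in 3, 0, 209 and 115 members, so that both Tg mice lay far above both WT mice. Summed over the members these lists, here with all their genes, were lower than in the droplets, for macrophage genes at 1715, 3283, 1562 and 3290 CPM against 3450, 7190, 4362 and 8682 CPM. No doublet caller was run, and doublets and free RNA cannot be told apart in such nuclei. In addition, 67.9%, 69.5%, 77.5% and 76.5% of the members had 3 or more UMIs from an arterial, venous or lymphatic list. The arterial list includes Vegfc, which general capillary nuclei carried at 360.3, 292, 254 and 241 CPM, so these lists do not mark large vessels alone.

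The proportion of general capillary nuclei in the endothelium was compared between genotypes. They made up 34.4% (95% exact binomial interval 32.0 to 36.9) and 31.6% (28.7 to 34.7) of the endothelial nuclei of WT 1 and WT 2. In Tg 1 the share was 32.4% (30.6 to 34.3) and in Tg 2 it was 33.3% (31.5 to 35.2), with intervals for counting error only. The genotypes overlapped, with a mean of 33.03% ± 1.97 (SD, n = 2) in WT and 32.9% ± 0.627 (SD, n = 2) in Tg. An exact two-sided permutation test gave p = 1.0, and 2 mice against 2 cannot give a p below 0.333. After thinning every nucleus to 1500 UMIs the share was 22.1%, 25.1%, 17.6% and 19.7%, and among nuclei with 2500 or more UMIs it was 47.4%, 46.9%, 38.1% and 40.7%. In both settings the Tg mice lay below the WT mice (exact permutation p = 0.333 each). The rule counts capillary UMIs of any source. At the estimated rate, free RNA would give 0.934, 0.922, 0.206 and 0.433 of them per barcode of the members' median depth before thinning, more in the WT mice. The part of free RNA in these shares was not tested. General capillary nuclei made up 84.8%, 86.6%, 80.9% and 78.8% of the capillary nuclei of both kinds, again without overlap (exact permutation p = 0.333).

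Cell cycle UMIs were sparse. After thinning, 2 or more UMIs from 17 cell cycle genes were present in 4.86% and 10.5% of the WT members and in 3.86% and 4.96% of the Tg members (exact permutation p = 0.667). WT 2 stood highest and the other mice were close to each other. The barcodes with at most 1 pan-endothelial UMI had shares of 7.53%, 14.6%, 4.11% and 6.35%, above those of the general capillary nuclei in every mouse. At the estimated rate, free RNA would give 66.1, 61.6, 42.9 and 49.9% of the summed level of these genes in the general capillary nuclei, and no cycling is read from the shares.

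Levels in general capillary nuclei were then compared between genotypes with edgeR's quasi-likelihood test on the 4 sums, with adjustment over all genes by the Benjamini-Hochberg method. Of 13603 genes tested, 868 were higher in the Tg mice (6.38%) and 169 were lower (1.24%) at an adjusted p under 0.05, and the median log2 fold change was 0.02. RNA of other cells was among what rose. All 5 erythroid genes were called higher, led by the globin gene Hbb-bs at 45.6, 39.6, 1443 and 834 CPM in the nuclei and 78.9, 96, 4538 and 2457 CPM in the droplets. Higher calls were also made for 5 of 9 airway secretory, 3 of 10 alveolar type 2 and 3 of 6 cardiac muscle genes, and for none of 15 macrophage genes. The arterial list had 4 higher members of 12 (33.3%), named after their values were seen. Cdh13, an atypical cadherin, was at 56.1, 49.96, 93.4 and 87.9 CPM in the nuclei and 25.1, 19.1, 18.8 and 14.1 CPM in the droplets (0.75 ± 0.18, adjusted p = 0.0452), and Dkk2, a Wnt inhibitor, at 1.44, 0.649, 7.3 and 7.71 CPM and 2.34, 2.09, 3.15 and 2.3 CPM. Both rose further than in the droplets (adjusted p = 0.00133 and 0.0438). The matrix genes Mgp and Fbln5 were also higher, and Mgp was at 176, 275, 732 and 507 CPM in the nuclei and 375, 655, 1799 and 1125 CPM in the droplets. Dkk2 rested on 3, 1, 24 and 28 UMIs. No arterial gene was called with free RNA subtracted, 1 was without Tg 1, and DESeq2 called 1. Without the members with 3 or more arterial, venous or lymphatic UMIs, 268 of all genes were called higher and 37 lower. Of the mitochondrially encoded genes 12 of 13 were higher and of the ribosomal protein genes 75 of 76, families picked out after their values had been seen. Ribosomal protein genes summed to 3412, 6930, 23210 and 21480 CPM in the nuclei and to 7150, 15860, 70970 and 57160 CPM in the droplets.

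The direction was the same in the droplets for 862 of the 868 higher genes and 168 of the 169 lower ones. A test of whether the change in the nuclei differed from that in the droplets of the same mice called 6.62% of 17859 genes as further up in the nuclei and 3.97% as further down, with Slc24a3, Adgrl3, Shisa9, Ptprb and Cdh5 of the rule among them. Of the genes called between genotypes, 41 of the higher and 9 of the lower ones passed this test in the direction of their change. Among the gene lists, the arterial one had 2 such genes, both higher, and every other list had 0. The same test was run against barcodes still further down the order, beyond rank 90000 and down to 180000. By edgeR it called 0 genes in place of 1891, with 1157 at an unadjusted p under 0.05. Those barcodes held at most 7, 10, 8 and 11 UMIs each, against medians of 672 to 949 in the first set. The sets thus differ in depth, and every call of a change beyond the droplets rests on the first set. With free RNA subtracted at the estimated rate, 78 genes were called higher and 15 lower. Single mice moved the count too, to 345 higher and 22 lower without Tg 1, and to 1433 higher and 701 lower without WT 2.

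**Figure D2:**
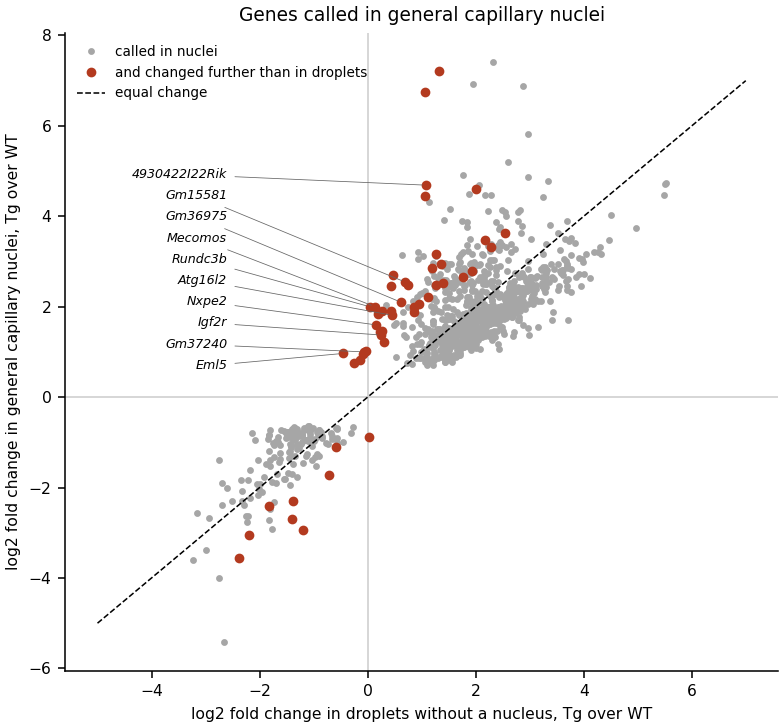
Each point is 1 of the 868 higher and 169 lower genes, with its log2 fold change (Tg over WT) in droplets without a nucleus on the x axis and in general capillary nuclei on the y axis, and red points mark the 41 higher and 9 lower genes that changed further than in the droplets. For 862 and 168 of the genes both changes have the same sign, and the 10 labelled genes lie above the dashed line of equal change.

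Of the 10 lower genes with the smallest p, 6 had levels above the droplets in every mouse, and for none of those was the change called as different from that in the droplets. Prr16, a regulator of cell size, stood at 76.3, 82.4, 15.5 and 20.1 CPM in the nuclei and 32.3, 22.3, 3.93 and 8.39 CPM in the droplets, a log2 fold change of -2.16 ± 0.21 (SE, adjusted p = 0.00436). Sdk1, a cell adhesion molecule, was at 130, 159, 56.3 and 55.9 CPM (-1.37 ± 0.18) and Frmd5, a FERM domain protein gene, at 104, 86.9, 30.7 and 24.8 CPM (-1.80 ± 0.21). Prr16, Sdk1, Frmd5, the receptor phosphatase gene Ptprt and Taco1, which aids translation of cytochrome oxidase, lay above the droplets in every mouse, as did the GTPase gene Iigp1. The first 5 were still called with free RNA subtracted, at an adjusted p of 0.0186, 0.026, 0.0186, 0.0353 and 0.0335. Without mixed nuclei 3 of these calls ended, with Frmd5 at -0.31 (adjusted p = 0.566), Ptprt at -1.28 (adjusted p = 0.205) and Sdk1 at -0.94 (adjusted p = 0.0666).

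The other 4 lower genes were below the droplet level in most mice. Gm48099, a transcript without a protein name, was at 73.4, 73.3, 7.61 and 6.61 CPM in the nuclei and 120, 200.3, 17.5 and 18.4 CPM in the droplets (-3.38 ± 0.24, adjusted p = 0.00216). Camk1d, a calcium-dependent kinase, was at 3437, 1711, 442 and 408 CPM in the nuclei and 5487, 3683, 986 and 726 CPM in the droplets (-2.62 ± 0.34, adjusted p = 0.00726). The WT mice differed widely from each other for Camk1d, and both lay above both Tg mice. Scin, which severs actin filaments, and Gm28307 also belonged here, and Gm28307 fell further than in the droplets, by a difference of -1.28 (adjusted p = 0.0167).

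Among the 10 higher genes with the smallest p, mt-Co1, mt-Cytb, mt-Atp6 and Atp5e encode respiratory chain or ATP synthase subunits, and Rpl34 encodes a ribosomal protein. The level of mt-Co1 was 105, 144, 703 and 732 CPM in the nuclei and 221, 219.6, 1619 and 1594 CPM in the droplets (2.52 ± 0.20, adjusted p = 0.0035). Slurp1, a secreted protein of epithelia, was at 12.5, 9.73, 98.3 and 113 CPM in the nuclei and 21.8, 18.1, 347 and 336 CPM in the droplets. For these 6 genes the droplets lay above the nuclei in every mouse.

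Wdr17, Gm15883 and Gm31356 had another order. Wdr17, a WD-repeat protein gene, was at 54.2, 67.5, 943 and 553 CPM in the nuclei and 32.9, 28.6, 142 and 182 CPM in the droplets, with a log2 fold change of 3.62 ± 0.31 (adjusted p = 0.0035) that exceeded the change in the droplets by 0.92 (adjusted p = 0.00169). The same gene was at 42.2, 71.9, 976 and 834 CPM in aerocytes and 54.6, 57.7, 1145 and 579 CPM in barcodes with at most 1 pan-endothelial UMI, so its change was not particular to the general capillary nuclei. Gm15883 was at 20.6, 14.3, 189.6 and 169.9 CPM and Gm31356 at 12.5, 10.4, 79.4 and 74.1 CPM, both above the droplets in the Tg mice.

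Of 29 adhesion and antigen presentation genes tested, 5 were lower and 2 higher in the Tg nuclei and 22 were not called, with a median log2 fold change of 0.02, against 1.24% lower and 6.38% higher among all genes. Irf1, a transcription factor induced by interferon gamma, was at 108, 109, 56.3 and 64.7 CPM (-0.85 ± 0.17, adjusted p = 0.0241). The guanylate-binding GTPase Gbp4 was at 133, 103, 41.7 and 58.4 CPM (-1.26 ± 0.22, adjusted p = 0.0169). In both genes the WT mice lay above the Tg mice, with Tg 1 lowest.

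Stat2, a transcription factor of type I interferon signalling, and the GTPase gene Gbp6 were also lower, named after their values had been seen, with log2 fold changes of -0.69 (adjusted p = 0.0486) and -1.30 (adjusted p = 0.0243). These, Irf1 and Gbp4 are not all of the list's 5 lower genes. The antigen presentation gene H2-K1 was at 713, 535, 251 and 400.5 CPM in the nuclei. Its droplets lay above the nuclei in every mouse, at 1449, 1234, 436 and 787.5 CPM. Cd74, of the same list, was at 155, 376, 473 and 924 CPM in the nuclei and 319, 677, 952 and 2089 CPM in the droplets. Outside the list, the interferon-inducible GTPase Iigp1 was at 284, 271, 59.6 and 93.7 CPM in the nuclei and 187, 105, 29.7 and 47.8 CPM in the droplets (-1.87 ± 0.22, adjusted p = 0.00584). Iigp1 was called with free RNA subtracted (adjusted p = 0.026) and without each mouse in turn. Type I interferon targets looked up after these values were seen gave no call, with Ifit1 at 8.64, 7.79, 10.0 and 6.89 CPM and Isg15 at 2.88, 5.19, 7.0 and 4.13 CPM. The list's higher members were Ly6e, at 107, 152, 316 and 324 CPM in the nuclei and 221, 240, 567 and 611 CPM in the droplets, and the adhesion molecule gene Icam2, at 6.72, 12.3, 47.5 and 22.9 CPM and 5.5, 9.21, 41.9 and 21.8 CPM. Ly6e lay below the droplets and Icam2 above them in every mouse.

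Neither without Tg 1 nor with free RNA subtracted was any of the list's genes called lower, and with subtraction the change was -0.96 for Irf1 (adjusted p = 0.0986) and -1.49 for Gbp4 (adjusted p = 0.0536). The droplets differed between genotypes in the same direction, for Irf1 at 95.9, 97.7, 46.5 and 64.2 CPM. For Gbp4 the droplets held 41.5, 36.1, 12.5 and 24.7 CPM. Both genes had droplets below the nuclei in every mouse, and the gap was smaller for Irf1. By the test of a change beyond that in the droplets, 0 of the list's higher and 0 of its lower genes passed. How much of these changes came from free RNA was not tested.

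Of the list's 5 lower genes 2 had a promoter window in the RefSeq table (GRCm38.p6), and both are shown because each holds an interferon pathway motif. The 250 bases before the start site are printed on the gene's strand, and capitals mark a match on either strand to the core of the interferon-stimulated response element (GAAA, any 2 bases, GAAA) or to the gamma-activated site (TTCNNNGAA). Stat2 (chr10:128270248-128270497, plus strand) held the first and Irf1 (chr11:53769764-53770013, plus strand) the second.
Stat2: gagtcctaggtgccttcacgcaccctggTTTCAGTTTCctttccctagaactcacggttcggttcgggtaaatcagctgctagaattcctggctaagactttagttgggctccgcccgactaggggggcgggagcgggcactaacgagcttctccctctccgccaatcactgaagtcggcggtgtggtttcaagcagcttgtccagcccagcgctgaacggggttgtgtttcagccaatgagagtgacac
Irf1: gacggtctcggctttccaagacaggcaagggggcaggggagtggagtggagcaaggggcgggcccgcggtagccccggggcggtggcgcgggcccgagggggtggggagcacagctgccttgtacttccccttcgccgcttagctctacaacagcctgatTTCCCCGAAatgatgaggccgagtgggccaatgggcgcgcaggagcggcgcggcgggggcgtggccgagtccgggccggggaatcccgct
Of all 32851 windows of this length 2.98% held the first motif and 7.02% the second. The window of a further start site of Irf1 held neither. A match describes the letters and is not evidence of binding.

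**Figure D3:**
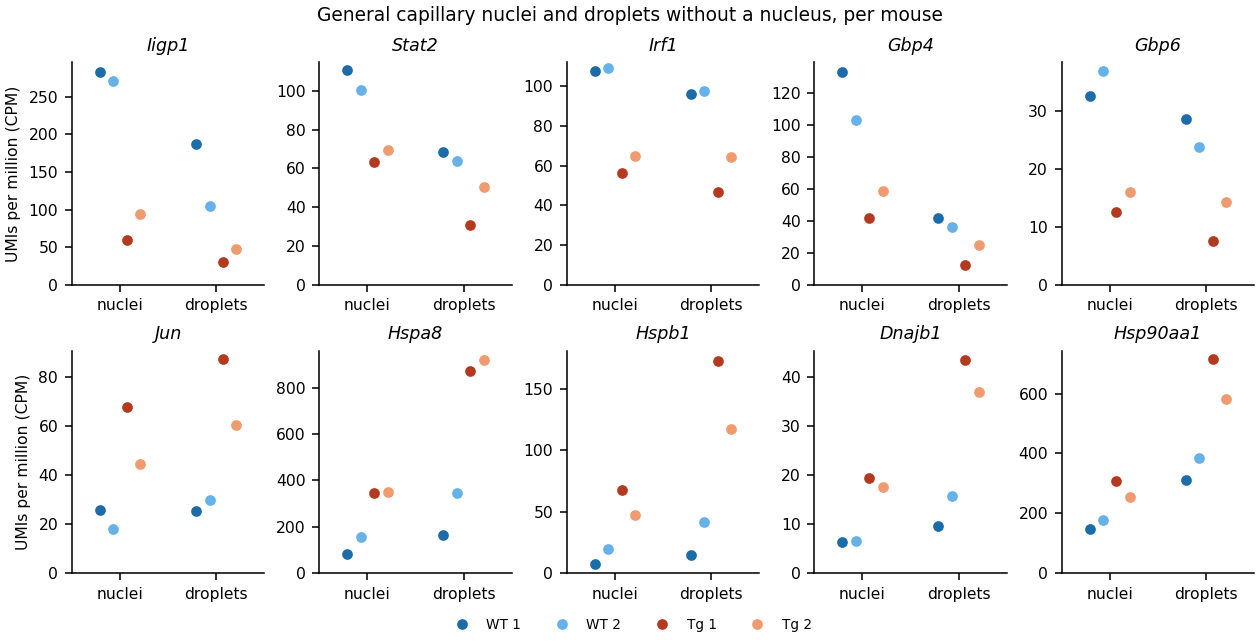
Levels (CPM, linear axes from 0) of 5 interferon pathway genes (top row) and 5 immediate early and heat shock genes (bottom row), with 1 point per mouse for general capillary nuclei and droplets without a nucleus. All the genes drawn were called between genotypes, and every called gene had genotypes without overlap in the nuclei. That both Tg mice lie below both WT mice in the top row and above them in the bottom row thus follows from the choice. The droplets have the same order of genotypes.

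Of 19 immediate early and heat shock genes tested, 5 were higher in the Tg nuclei (26.3%, against 6.38% of all genes) and 14 were not called, with a median log2 fold change of 0.36. The cytosolic chaperone gene Hspa8 was at 83, 154, 344 and 349 CPM (1.55 ± 0.26, adjusted p = 0.0156), and the small heat shock protein gene Hspb1 at 7.2, 19.5, 67.6 and 47.1 CPM (2.15 ± 0.41, adjusted p = 0.022). Dnajb1, a co-chaperone gene, was at 6.24, 6.49, 19.5 and 17.6 CPM, the transcription factor gene Jun at 25.9, 18.2, 67.9 and 44.6 CPM, and the chaperone gene Hsp90aa1, named after its values were seen, at 149, 176, 307 and 255 CPM. Fos and Junb, partners of Jun, were at 8.16, 9.08, 7.61 and 11.3 CPM and 42.2, 42.2, 31.4 and 43.2 CPM, neither past the threshold. The droplets held 165, 345, 873 and 919 CPM of Hspa8, 14.8, 41.6, 173 and 117 CPM of Hspb1, 9.69, 15.7, 43.6 and 37 CPM of Dnajb1 and 312, 386, 716 and 581 CPM of Hsp90aa1, each above the nuclei in every mouse. Jun was at 25.1, 29.7, 87.4 and 60.4 CPM there, below the nuclei in WT 1 alone. Dnajb1 was not called without mixed nuclei (0.97, adjusted p = 0.227). Without Tg 1 a single gene of the list was called, without WT 2 it was 8, and with free RNA subtracted none was.

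The VEGF and angiopoietin list had 2 lower members of 20 tested, against 1.24% lower among all genes. Angpt1, the ligand that stabilises vessels through the receptor Tek, was at 187, 191, 87.7 and 101 CPM in the nuclei and 71.6, 49.8, 23.8 and 29.5 CPM in the droplets, with a log2 fold change of -1.02 ± 0.16 (adjusted p = 0.0124). Angpt1 was called with free RNA subtracted (-1.21, adjusted p = 0.0485). It was not called without mixed nuclei (-0.35, adjusted p = 0.402), without nuclei with arterial, venous or lymphatic UMIs (-0.54, adjusted p = 0.343) or after thinning (-0.73, adjusted p = 0.0805). Spry4, an inhibitor of growth factor signalling, was at 12.9, 14.3, 4.87 and 4.68 CPM (-1.51 ± 0.37, adjusted p = 0.0498). The ligand gene Vegfa was at 182, 159, 112 and 109 CPM without a call (adjusted p = 0.0597), and neither Kdr nor the angiopoietin receptor gene Tie1 was called. Neither Angpt1 nor Spry4 was called without Tg 1, and Spry4 was not called without any of the other mice either.

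The BMP and TGF-beta list, which holds genes mutated in heritable pulmonary hypertension, had 2 higher (6.25%) and 1 lower (3.13%) of 32 tested, against 6.38% and 1.24% of all genes, with a median of -0.10. Among the receptors, Bmpr2 was at 889, 781, 584 and 673 CPM (-0.43 ± 0.18, adjusted p = 0.169) and Acvrl1 at 103, 137, 140.3 and 126 CPM, neither past the threshold. The BMP target Id3 was at 17.3, 17.5, 91.3 and 51.2 CPM in the nuclei and 17.5, 22.1, 122 and 86 CPM in the droplets (2.02 ± 0.33, adjusted p = 0.0143). The water channel gene Aqp1 was at 58, 92.1, 274 and 230.3 CPM in the nuclei and 73.4, 117, 532 and 411 CPM in the droplets (1.75 ± 0.24, adjusted p = 0.00806). Both lay higher in the droplets than in the nuclei of every mouse. Bmper, a secreted BMP modulator, was at 48.9, 42.8, 22.8 and 19 CPM against 17.5, 8.79, 4.25 and 5.3 CPM in the droplets (-1.15 ± 0.24, adjusted p = 0.028) and was not called without Tg 1 or without Tg 2. Its change was -0.51 without mixed nuclei (adjusted p = 0.516) and -0.27 after thinning (adjusted p = 0.727). With free RNA subtracted, none of the 31 genes of the list then tested was called.

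Of 23 Notch genes tested 1 was called, as higher (4.35%, against 6.38% of all genes). No ligand passed the threshold in the comparison without a block. Jag1 was at 109, 69.4, 45 and 54.3 CPM (-0.87 ± 0.24, adjusted p = 0.0706, and -0.84 with an adjusted p = 0.0425 with a replicate block), Jag2 at 25.9, 21.4, 33.5 and 20.4 CPM, Dll1 at 5.28, 13.6, 6.09 and 4.13 CPM and Dll4 at 4.32, 6.49, 4.57 and 4.68 CPM. The droplets held 129, 100.2, 44 and 59 CPM of Jag1, so that the nuclei exceeded them in Tg 1 alone. The receptor genes Notch1, at 62.4, 70.7, 64.5 and 68.3 CPM, and Notch4, at 16.8, 29.2, 33.5 and 31.9 CPM, were not called either. The target Hes1 was higher, at 62.9, 53.2, 124 and 99.7 CPM (0.93 ± 0.20, adjusted p = 0.0359), with 139, 119.7, 209 and 187 CPM in the droplets. Hes1 was not called without Tg 1, without mixed nuclei (0.97, adjusted p = 0.0566) or after thinning (0.63, adjusted p = 0.148). With free RNA subtracted its change was 4.39, but the WT nuclei held 45.1 and 44.5% of the droplet level and 43.6% was taken away, so that almost nothing was left in WT and no call is read from it.

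None of 5 CDK inhibitors tested passed the threshold in the comparison of all members, against 6.38% higher and 1.24% lower of all genes. Cdkn1a, which p53 induces, had 50, 47, 140 and 228 UMIs, or 24, 30.5, 42.6 and 62.8 CPM (0.94 ± 0.25, adjusted p = 0.0633), and 43.2, 67, 92 and 129 CPM in the droplets. The genotypes did not overlap for Cdkn1a, and the droplets lay above the nuclei in every mouse. Cdkn1a was called higher without mixed nuclei (1.09, adjusted p = 0.0403) and with a replicate block (adjusted p = 0.0211), and not after thinning (1.17, adjusted p = 0.0624) or with free RNA subtracted (1.72, adjusted p = 0.296). Without WT 2 the list had 2 higher members, and with 5 UMIs from 3 capillary genes required it had 1. Cdkn2c was at 9.12, 11.7, 4.26 and 2.48 CPM (adjusted p = 0.0751), Cdkn1b at 54.2, 60.3, 48.4 and 49 CPM, Cdkn1c at 0.48, 7.14, 11.9 and 4.68 CPM and Cdkn2d at 3.36, 5.19, 3.96 and 4.68 CPM. Cdkn2a and Cdkn2b had too few UMIs to be tested.

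Of 23 p53 targets tested 3 were higher (13.0%, against 6.38% of all genes): Phlda3, a repressor of Akt signalling, Plk3, a stress-responsive kinase, and Perp, a membrane protein of apoptosis and cell adhesion. Phlda3 was at 1.44, 1.95, 15.2 and 9.91 CPM in the nuclei and 6.09, 6.03, 27.1 and 25.1 CPM in the droplets (2.87 ± 0.54, adjusted p = 0.0216). Plk3 was at 1.44, 1.3, 9.44 and 7.71 CPM in the nuclei and 4.18, 5.23, 10.8 and 12 CPM in the droplets, and Perp at 4.32, 7.79, 16.7 and 18.7 CPM and 8.96, 15.4, 39.2 and 37.2 CPM. All 3 lay below the droplets in every mouse. Phlda3 had 3, 3, 50 and 36 UMIs and Plk3 3, 2, 31 and 28 UMIs. DESeq2 called Phlda3 alone of the list, with an adjusted p of 0.129 for Plk3 and 0.15 for Perp. Mdm2, which degrades p53 and is induced by it, was at 127, 94.1, 62.1 and 75.2 CPM (-0.71 ± 0.21, adjusted p = 0.0773). No p53 target was called without Tg 1 or with free RNA subtracted, 1 was without Tg 2, and 5 were called higher and 1 lower without WT 2.

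None of 15 shelterin and telomere genes was called, against 6.38% higher and 1.24% lower of all genes. Endogenous Terf2, which encodes TRF2, was at 50.9, 45.4, 49 and 53.2 CPM (0.07 ± 0.19, adjusted p = 0.861). Terf2 says nothing of the transgene. Among 28 secretory genes of senescent cells 1 was higher and 1 lower (3.57% each, against 6.38% and 1.24% of all genes). Igfbp5, an IGF-binding protein gene, was higher, at 301, 467, 699.7 and 893 CPM (adjusted p = 0.0374), and the chemokine gene Ccl2 was lower, at 5.28, 3.89, 0.609 and 0.551 CPM (adjusted p = 0.0379). The droplets held 732, 1032, 1799 and 2222 CPM of Igfbp5, above the nuclei in every mouse. Igfbp5 was not called after thinning (0.86, adjusted p = 0.0915) or with free RNA subtracted (3.25, adjusted p = 0.175, with little left in WT), nor without WT 1 (0.76, adjusted p = 0.0871) or without Tg 2 (0.88, adjusted p = 0.0661). Ccl2 rested on 11, 6, 2 and 2 UMIs and was not called by DESeq2 (adjusted p = 0.184). With free RNA subtracted the list had 1 higher gene of 16 tested. It had 3 higher and 1 lower of 19 without mixed nuclei, and 3 higher of 20 with 5 UMIs from 3 capillary genes required.

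Of 22 genes of capillary identity and lipid uptake tested 2 were higher (9.09%, against 6.38% of all genes), with a median of 0.21. Fabp5, a fatty acid carrier, was at 32.6, 34.4, 95.3 and 86.8 CPM (1.43 ± 0.19, adjusted p = 0.00747) and at 72.2, 84.5, 274 and 226 CPM in the droplets. Gpihbp1, which anchors lipoprotein lipase on the capillary wall, was at 6.72, 14.9, 39 and 29.2 CPM (1.69 ± 0.38, adjusted p = 0.0376) and at 6.13, 5.49, 27.9 and 17.9 CPM in the droplets. Gpihbp1 lay above the droplets and Fabp5 below them in every mouse. Cd36, a fatty acid transporter gene, was at 708, 518, 515 and 550 CPM without a call. Without Tg 1 Fabp5 alone was called, without WT 2 or without Tg 2 the list had 5 higher members, and with free RNA subtracted it had none. Of 14 aerocyte genes outside the rule Sparc and Fibin were higher (14.3%, against 6.38% of all genes), and neither was with free RNA subtracted.

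Of 28 junction genes 2 were higher (7.14%, against 6.38% of all genes), Icam2 and the tight junction gene Cldn5 (40.8, 33.1, 92.5 and 71.9 CPM, 1.13 ± 0.23, adjusted p = 0.0264), while the median was -0.21. The droplets held 51.7, 41, 86.1 and 59.3 CPM of Cldn5, above the nuclei in WT and below them in Tg mice. Neither was called without Tg 1, with free RNA subtracted (1.495, adjusted p = 0.0563 for Cldn5 and 1.66, adjusted p = 0.23 for Icam2) or without mixed nuclei (0.86, adjusted p = 0.0519 and 2.01, adjusted p = 0.0647). Of 31 endothelial transcription factors 1 was called, Ets1, as lower (3.23%, against 1.24% of all genes). Ets1 was at 316, 283, 162 and 202 CPM in the nuclei and 152, 176, 59.7 and 99.8 CPM in the droplets (adjusted p = 0.0443). It was called without WT 2 but not without any other mouse, nor with free RNA subtracted (-0.84, adjusted p = 0.151), after thinning (-0.56, adjusted p = 0.104) or without TMM factors (-0.72, adjusted p = 0.061). Of 33 matrix and integrin genes 2 were higher (6.06%, against 6.38% of all genes), Sparc, a matrix glycoprotein gene, at 129, 147, 296 and 277 CPM in the nuclei and 113, 169, 442 and 382 CPM in the droplets, and the laminin chain gene Lamb2, at 13.9, 12.3, 42.3 and 28.4 CPM and 11.4, 15.8, 75.8 and 62.8 CPM. The glycolytic enzyme gene Aldoa, at 44.1, 60.3, 147 and 118 CPM in the nuclei and 98.7, 114, 369 and 336 CPM in the droplets, was the 1 higher gene of 26 hypoxia genes (3.85%, against 6.38% of all genes). All 3 rose less in the nuclei than in the droplets, by a difference of -0.78 for Sparc (adjusted p = 0.00329), -1.26 for Lamb2 (adjusted p = 0.00163) and -0.65 for Aldoa (adjusted p = 0.0301). None of 29 vasoactive genes and none of 17 cell cycle genes was called, against 6.38% higher and 1.24% lower of all genes. Nos3 and Edn1 were among the vasoactive genes.

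**Figure D4:**
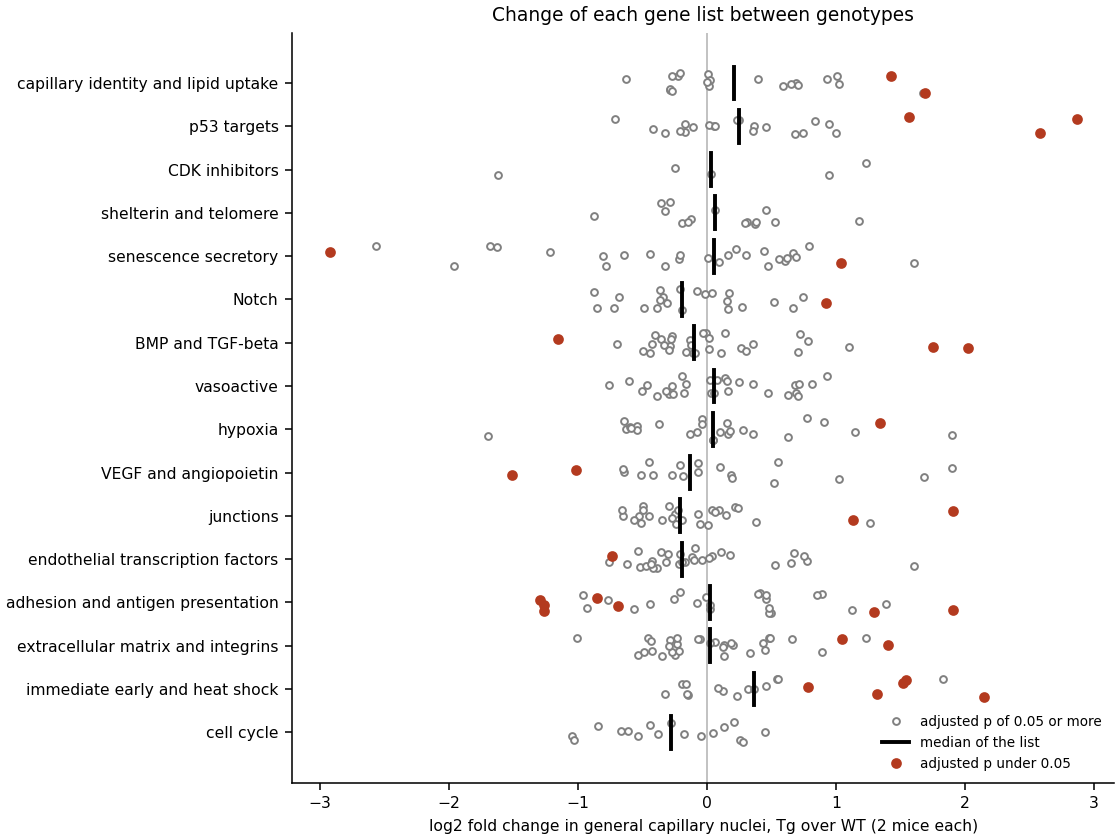
Log2 fold change (Tg over WT) of each tested gene in 16 lists, with filled points for an adjusted p under 0.05, open points for the rest and a bar at each list's median; the vertical scatter within a list has no meaning. The medians lie between -0.28 for cell cycle genes and 0.36 for immediate early and heat shock genes, against 0.02 over all genes.

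Among the genes also called between genotypes, the 10 with the smallest p for a change beyond that in the droplets were taken. That test called none against the barcodes beyond rank 90000, which held at most 7 to 11 UMIs each, depending on the mouse. Of the 10, Rundc3b and Nxpe2 were level in the droplets and in barcodes with at most 1 pan-endothelial UMI. Whether those barcodes are nuclei of other cells or droplets with free RNA only was not tested. Rundc3b, a RUN domain protein gene, was at 29.8, 20.1, 142 and 61.4 CPM in the nuclei (2.00 ± 0.43, adjusted p = 0.032), 11.4, 7.62, 7.75 and 10.1 CPM in the droplets and 10.1, 7.88, 8.09 and 8.13 CPM in barcodes with at most 1 pan-endothelial UMI. Nxpe2 was at 25.4, 20.8, 82.8 and 59.5 CPM (1.60 ± 0.26, adjusted p = 0.0139), 4.45, 5.61, 4.97 and 5.12 CPM and 2.6, 5.52, 3.18 and 2.71 CPM in the same order. Both had Tg nuclei above WT nuclei and above their droplets, with Tg 1 highest. Rundc3b was not called without Tg 1, and neither gene was called between genotypes with free RNA subtracted, where the changes were 1.90 (adjusted p = 0.0881) and 1.43 (adjusted p = 0.064). In the endothelial nuclei of neither capillary kind the changes were 2.31 (adjusted p = 0.0634) and 1.94 (adjusted p = 0.0668). Aerocytes held 15.8, 16.6, 29.2 and 17.4 CPM of Rundc3b and 5.27, 5.53, 30.7 and 18.5 CPM of Nxpe2, and in neither gene was the change called as different from that in aerocytes (adjusted p = 0.787 and 0.992). The rises were thus not shown to be particular to the general capillary nuclei.

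The other 8 had the same direction in barcodes with at most 1 pan-endothelial UMI, where no call was made. Igf2r, the receptor that sorts lysosomal enzymes and clears IGF2, was at 54.2, 33.7, 126 and 108 CPM in the nuclei (1.37 ± 0.25, adjusted p = 0.0193), 55.9, 45.4, 52.4 and 55.7 CPM in the droplets and 57.9, 48.4, 153 and 101 CPM in those barcodes. Atg16l2, related to an autophagy protein, was at 15.3, 17.5, 66 and 49.9 CPM in the nuclei and 16, 18.4, 17.9 and 25 CPM in the droplets. Eml5, related to microtubule-binding proteins, was at 27.8, 22.7, 55.1 and 45.5 CPM and 33.2, 30.9, 16.8 and 25.9 CPM. For all 3 the nuclei lay above the droplets in the Tg mice and below them in the WT mice. Gm15581, Gm36975, Gm37240, Mecomos and 4930422I22Rik, the last with 3, 0, 93 and 61 UMIs, made up the rest.

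Whether the change differed from that in aerocytes was tested in a model with a term for each mouse. Of 12220 genes, 0 changed further up in general capillary nuclei (0.0%) and 13 changed further down (0.106%) by edgeR's quasi-likelihood test, with 732 at an unadjusted p under 0.05. Rcan2, a regulator of calcineurin, was at 72.9, 99.3, 59.4 and 62.2 CPM in general capillary nuclei and 23.7, 77.4, 226 and 66.3 CPM in aerocytes, a difference of -2.12 ± 0.39 on the log2 scale (adjusted p = 0.0041). Tg 1 was high in aerocytes, and Tg 2 lay between the WT mice. The growth factor gene Vegfc was at 360.3, 292, 254 and 241 CPM in general capillary nuclei and 63.3, 27.6, 86.2 and 121 CPM in aerocytes (-1.51 ± 0.30, adjusted p = 0.0102). Col4a3, a basement membrane collagen chain gene, was at 158, 227, 208 and 214 CPM against 50.1, 116, 177 and 202 CPM (-1.20 ± 0.27, adjusted p = 0.0265).

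No gene of the 13 was called in general capillary nuclei alone, and Col4a3 and the extracellular matrix gene Fras1 were called in aerocytes alone. Plce1, Tspan5, Plcb1, Fbxl7, Nrg1, Tafa2, Nrp2, Tmem108 and Vwf made up the rest. The aerocyte sums were small, from 92, 47, 195 and 222 nuclei, and Vegfc had 24, 5, 59 and 111 UMIs there. The count of 13 became 52 without WT 2, 4 without Tg 1 and 8 without Tg 2.

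**Figure D5:**
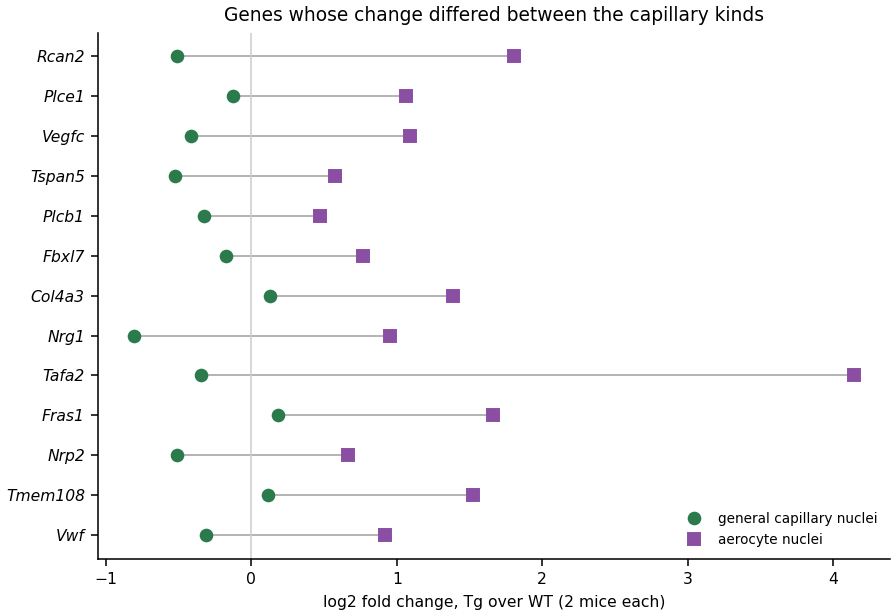
Log2 fold change (Tg over WT) of the 13 genes in general capillary nuclei (circles) and aerocyte nuclei (squares), each joined by a line. In aerocytes every change is above 0, from 0.47 for Plcb1 to 4.14 for Tafa2, and in general capillary nuclei the changes lie between -0.80 for Nrg1 and 0.18 for Fras1.

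Against the barcodes with at most 1 pan-endothelial UMI, 73 of 18595 genes changed further up in general capillary nuclei (0.393%) and 20 further down (0.108%). The former include Kit, Shank3, Tek, Calcrl and Ednrb, which the rule used. The other barcodes were themselves limited in pan-endothelial UMIs, so that nothing is read from the counts, and the differences below are a description. Ldb2 was at 1234, 1613, 1185 and 1333 CPM in general capillary nuclei and 124, 97.2, 35.1 and 46.9 CPM in the other barcodes, a difference of 1.30 ± 0.17 (adjusted p = 3.58e-05). The droplets held 177, 124, 74.3 and 90.4 CPM of Ldb2, above the other barcodes in every mouse, with both Tg mice below both WT mice. Gm30382, Dach1, a transcription factor gene, and Cyyr1 had the same order of levels. For Rundc3b the difference was 2.10 ± 0.28 (adjusted p = 6.39e-05), with the other barcodes level and the Tg general capillary nuclei higher. The number of genes called in either direction was 16 without Tg 1, 191 without Tg 2 and 326 without WT 1.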

How the data were processed

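Per the labels, the authors made the deposited counts from lung nuclei with Cell Ranger 6.1.1 against mm10, as UMIs per gene (32285 genes) and barcode with no normalization. Intronic reads were included according to the methods of the study. Here the unfiltered matrices were read, nuclei were chosen as in the opening, and counts were summed per mouse and class. The members and gene lists were chosen with earlier results of these data known. Genes passing edgeR's filterByExpr (minimum count 10) were tested with edgeR 4.0.16 in R 4.3.3 (TMM factors, glmQLFit and glmQLFTest, 2 mice a genotype, Benjamini-Hochberg adjustment, threshold 0.05). Differences from aerocytes, other barcodes and droplets used an interaction with a term for each mouse. The standard error is the log2 fold change over the root of F. Shares were compared with exact permutation tests in SciPy 1.17.1. Alternatives included DESeq2 1.42.0. The scripts were tested on simulated data. Named genes were those with the smallest p (10 higher, 10 lower, and 10 beyond the droplets among genes called between genotypes). Called members of each list (at most 4), every CDK inhibitor and Notch ligand, Terf2, and 12 genes by fold over each other class were also named. Where nothing says that mice were processed apart, p measures only the spread between these samples. The authors' doublet and free RNA removal was not applied. Some genes that the rule selected are not reported here.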

Additional observations from a re-analysis of the deposited data

Results flagged for a closer look

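For 13 genes the change between genotypes differed between general capillary and aerocyte nuclei by a test of the difference itself (edgeR, adjusted p under 0.05). The change in general capillary nuclei minus that in aerocytes, on the log2 scale, was -2.12 for Rcan2, -1.19 for Plce1, -1.51 for Vegfc, -1.07 for Tspan5, -0.783 for Plcb1, -0.888 for Fbxl7 and -1.20 for Col4a3. For the remaining genes it was -1.62 for Nrg1, -4.335 for Tafa2, -1.35 for Fras1, -1.20 for Nrp2, -1.335 for Tmem108 and -1.375 for Vwf. Tafa2 had 1, 1, 77 and 19 UMIs in aerocytes, most of them in Tg 1.

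Against barcodes with at most 1 pan-endothelial UMI, the same test gave a further rise or smaller fall in general capillary nuclei of 1.415 for Gm30382, 1.09 for Dach1, 1.30 for Ldb2, 2.10 for Rundc3b and 1.15 for Cyyr1, the 5 genes outside the rule with the smallest p. Those barcodes were limited in pan-endothelial UMIs by choice, and their median UMIs were 1810 and 1889 in WT and 2374 and 2247 in Tg mice. These 5 differences are therefore a description. Against droplets without a nucleus, the change was larger by 1.75 for Gm15581, 1.385 for Gm36975, 1.23 for Atg16l2, 1.78 for Mecomos and 3.61 for 4930422I22Rik. It was larger by 1.29 for Nxpe2, 1.035 for Igf2r, 1.745 for Rundc3b, 0.952 for Gm37240 and 1.32 for Eml5. The cause was not tested for any of them.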

How the results depend on the processing

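The count of 1037 genes changed in general capillary nuclei was 2411 with no filter on low counts, 93 with free RNA subtracted, 305 without nuclei with arterial, venous or lymphatic UMIs, and 367 (without Tg 1) to 2134 (without WT 2) with a mouse left out. With a replicate block it was 1581. No label ties same-numbered mice to a shared litter, batch or day, and with 2 mice a genotype their deviations give a single correlation (0.116), which cannot settle whether they were paired. The 13 genes that differed from aerocytes became 4 without TMM factors, 24 without the filter and 4 (without Tg 1) to 52 (without WT 2) with a mouse left out. The 93 that differed from other barcodes became 45, 163 and 16 (without Tg 1) to 326 (without WT 1) in the same settings. The 1891 that differed from the droplets ranged from 489 (without WT 1) to 2455 (without Tg 2) and were 0 against barcodes ranked beyond 90000, down to 180000, by edgeR, with 1157 at an unadjusted p under 0.05. The barcodes beyond rank 90000 held at most 7 to 11 UMIs each, depending on the mouse. Without TMM factors the genes that differed from the droplets split into 2090 up and 121 down in place of 1182 and 709.

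The difference in the general capillary share (Tg minus WT, -0.17 percentage points) was -4.98 after thinning, -7.74 with 2500 or more UMIs, -13.4 without mixed nuclei, and -1.56 to 1.22 with a mouse left out. That in cell cycle UMIs (-3.26) was -10.9 without thinning and -6.08 to -0.450 with a mouse left out. With free RNA subtracted Rpl34 turned to -0.11 (adjusted p = 0.98), and 16 of 58 named called genes stayed past the threshold, of 47 tested. Without Tg 1 it was 34 of 58, without mixed nuclei 38 of 54 tested, and after thinning 46 of 56. DESeq2 called 821 genes. The cause was not tested. With 2 mice a genotype and UMI sums of 1541387 to 3630683, genes with a few UMIs have wide errors, and free RNA limits what low levels show.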
